A study of Rattus norvegicus with 6 samples.

Results

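The arms of 3 microRNA (miRNA) hairpins, miR-151, miR-28 and miR-674, were described in small RNA libraries of exosomes from rat mesenchymal stem cells (MSCs). They were picked by exact name, and all 6 arm names (miR-151-3p, miR-151-5p, miR-28-3p, miR-28-5p, miR-674-3p and miR-674-5p) were found among the 763 mature miRNAs listed. miR-151-3p and miR-674-3p had been chosen for a modest rise after nicorandil in these same data, so their difference between the groups is described here without a test. The other 4 arms were chosen by name alone, as the opposite arms and as the miR-28 relative. Of the 6 arms, 4 had a read in any library and 3 had enough reads to enter the fit across miRNAs.

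A miRNA gene gives a hairpin transcript that is cut to a short duplex, whose strands are named 5p and 3p after the side of the hairpin they come from. Usually 1 strand is kept by an Argonaute protein, and its seed, the bases near its 5′ end, pairs with target messenger RNAs. miR-28 and miR-151 belong to 1 miRNA family, together with miR-708, and both hairpins come from an old transposable element of the LINE class. In the RefSeq annotation of GRCr8 the miR-151 gene lies within Ptk2, which encodes focal adhesion kinase, the miR-28 gene within Lpp, which encodes a focal adhesion protein, and the miR-708 gene within Tenm4. miR-674 is known from rodents, and its gene lies in no other gene of that annotation, with Spred1 and Fam98b as the nearest protein-coding genes.

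The study had 2 groups of 3 libraries. The cells were labelled as RBMSC, wild type, and were either left without treatment or pretreated with 200 µM nicorandil for 24 h, and exosomes were taken from the culture supernatant with an isolation reagent. Nicorandil, given to patients with angina, is both a nitric oxide donor and an opener of ATP-sensitive potassium channels. The labels do not tie the libraries to separate cultures, so p-values measure only the spread between these libraries, and that spread may be technical.

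Sequences are shown for the arms that carry the family relation and for the miR-674 hairpin, in which the arms face each other. They are from RefSeq (GRCr8), which held 3 of the 6 arms by name; miR-151-3p, miR-151-5p and miR-674-3p are named only. In the first 4 lines the capitals mark the seed, bases 2 to 8 from the 5′ end.
miR-28-3p: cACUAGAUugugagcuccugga
miR-708-3p: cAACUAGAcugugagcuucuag
miR-28-5p: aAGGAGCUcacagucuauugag
miR-708-5p: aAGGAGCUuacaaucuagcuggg
In the hairpin of miR-674 the capitals mark the mature 5p arm, bases 11 to 32.
Mir674: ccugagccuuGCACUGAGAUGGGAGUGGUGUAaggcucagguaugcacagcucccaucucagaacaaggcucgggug

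The 5p arms of miR-28 and miR-708 had the same seed, AGGAGCU, and no other mature rat miRNA in the table shared it. Their 3p arms had different seeds, ACUAGAU and AACUAGA, and the longest run they shared was UGUGAGCU, from base 9 of miR-28-3p and base 10 of miR-708-3p. No other rat miRNA in the table had the seed of miR-28-3p. Within miR-28, a run of 11 bases of the 5p arm, AGGAGCUCACA, was the exact reverse complement of a stretch of the 3p arm. In the miR-674 hairpin the stretch CUCCCAUCUCAG, which starts at base 51, was the reverse complement of 12 bases of the 5p arm. miR-28-3p lies on the minus strand at chr11:89480263-89480284 and miR-28-5p at chr11:89480303-89480324. The miR-674 hairpin lies on the plus strand at chr3:124507170-124507246.

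Few reads lay behind each library, and fewest in the untreated group. These 3 libraries held 2212 to 2338 miRNA reads and those after nicorandil 8426 to 16628, a 6.11-fold difference in the totals of the groups. A count of 0 allows up to 3 reads, which is 0.128% to 0.136% of an untreated library and 0.018% to 0.0356% of a nicorandil library; such limits and all Wilson intervals cover counting error only. For the marker lists, with reads means a read in at least 1 of the 6 libraries. All 11 mesenchymal miRNAs on a fixed list had reads in this sense. Together they took at least 27.3% of each untreated library and 26.2% to 31.3% of nicorandil libraries. Of this, miR-143-3p alone gave 1527 of the 6774 untreated and 10227 of the 41378 nicorandil reads. miR-145-5p had 0 reads in the untreated libraries, and miR-31a-5p had only 1 read, in nicorandil replicate 2. Markers of liver and gut, blood, epithelium and endothelium took smaller shares in every nicorandil than in any untreated library; these shares were not tested. The 3 hepatocyte and gut markers, all with reads, took 1.44% to 2.61% of untreated and 0.463% to 0.617% of nicorandil libraries. The 6 blood markers, all with reads, took 0.678% to 0.854% and 0.263% to 0.415%, and the 5 epithelial markers, all with reads, 0.181% to 0.385% and 0.0119% to 0.0301%. These epithelial shares rest on few reads. miR-200b-3p had 5, 2 and 4 untreated reads and 1, 2 and 1 nicorandil reads. miR-429 had 1 read in each of untreated replicates 1 and 2 only, while the only read of miR-141-3p was in nicorandil replicate 1. Of the 2 endothelial markers 1 had reads (0.181% to 0.36% and 0.0301% to 0.0356%) and miR-126a-5p was at 0. Neuronal (1 of 3 with reads) and muscle markers (2 of 4) took at most 0.171% of any library, with miR-124-3p, miR-9a-5p, miR-1-3p and miR-206-3p at 0. The part of these other cells in the values below was not tested. In bulk exosome RNA, more vesicles and more of a miRNA per vesicle cannot be told apart. Untreated replicates 1 and 2 could not be told apart by the chi-square test (chi-square per degree of freedom 0.932, p = 0.617). The chi-square test did not tell untreated replicates 1 and 3 apart (1.18 per degree of freedom, p = 0.174). Untreated replicates 2 and 3 differed by the chi-square test (1.47 per degree of freedom, p = 0.0121). The nicorandil libraries, which are deeper, differed from each other beyond sampling noise, with a chi-square per degree of freedom of 2.37 for replicates 1 and 2, 5.15 for 1 and 3 and 5.39 for 2 and 3. Since untreated replicate 1 could be told from neither of the others at this depth, and the deposited values of the 3 untreated libraries are not identical, they were kept as 3 libraries.

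The reads of all 3 hairpins came mostly from the 3p arm in both groups, and those of miR-151 and miR-674 only from it. miR-151 had 490 reads on the 3p arm and none on the 5p arm. For miR-674 the counts were 436 and 0. For miR-28 they were 141 and 4, so that 97.2% of its reads were on the 3p arm (95% Wilson interval 93.1% to 98.9%). With 0 of 490 and 0 of 436 reads, the 5p arm of miR-151 could hold up to 0.612% and that of miR-674 up to 0.688% of the reads of the hairpin.

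This one-sidedness was seen library by library. The 3p reads of miR-151 numbered 15, 24 and 17 in the untreated libraries and 156, 201 and 77 in the nicorandil libraries, with no 5p read in any of them. Those of miR-674 numbered 19, 18 and 16 in the untreated libraries and 162, 145 and 76 in the nicorandil libraries, again with no 5p read. In untreated replicate 3, with 17 reads of miR-151, a 5p share of up to 17.6% would still have been missed, against 1.49% in nicorandil replicate 2. The untreated libraries therefore bound the 5p arms far less tightly than the nicorandil libraries.

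miR-28-5p, the arm that shares its seed with miR-708-5p, was the only 5p arm of the 3 hairpins with reads. It had 2 reads in untreated replicate 2 and 2 in nicorandil replicate 1, and none in the other 4 libraries. In these 2 libraries the 3p arm of miR-28 took 77.8% of 9 reads (95% Wilson interval 45.3% to 93.7%) and 94.9% of 39 reads (83.1% to 98.6%), and elsewhere it took all reads. The 3p share averaged 92.6% in untreated and 98.3% in nicorandil exosomes, and the groups overlapped (two-sided exact permutation p = 1.0, where 0.1 is the smallest possible). miR-28-5p did not reach the mean of 1 normalized read needed to enter the fit. The authors' deposited table lists it with a log2 fold change of -1.91, which rests on these 4 reads.

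Having no read on the other arm, as for miR-151 and miR-674, was common in these libraries. Of 282 hairpin names listed with both arms, 65 had at least 20 reads, of which 34 had more reads on the 3p arm and 31 on the 5p arm. The median share of the more abundant arm was 99.7%. For 30 of the 65 the other arm had no read, 17 of them with reads on the 3p and 13 on the 5p arm. By number of reads miR-151 was 6th and miR-674 8th of these 30, after miR-143, miR-320, miR-328a, miR-99a and miR-30d, and with miR-26a between them. The hairpins below miR-674 had from 248 down to 20 reads, which allow 1.21% to 15% on the other arm. Whether these are as one-sided as miR-151 and miR-674 is therefore not known. miR-28 was 24th of the 65 in order of 3p share, next to miR-23b at 97.8% and miR-140 at 96.9%.

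**Figure D1:**
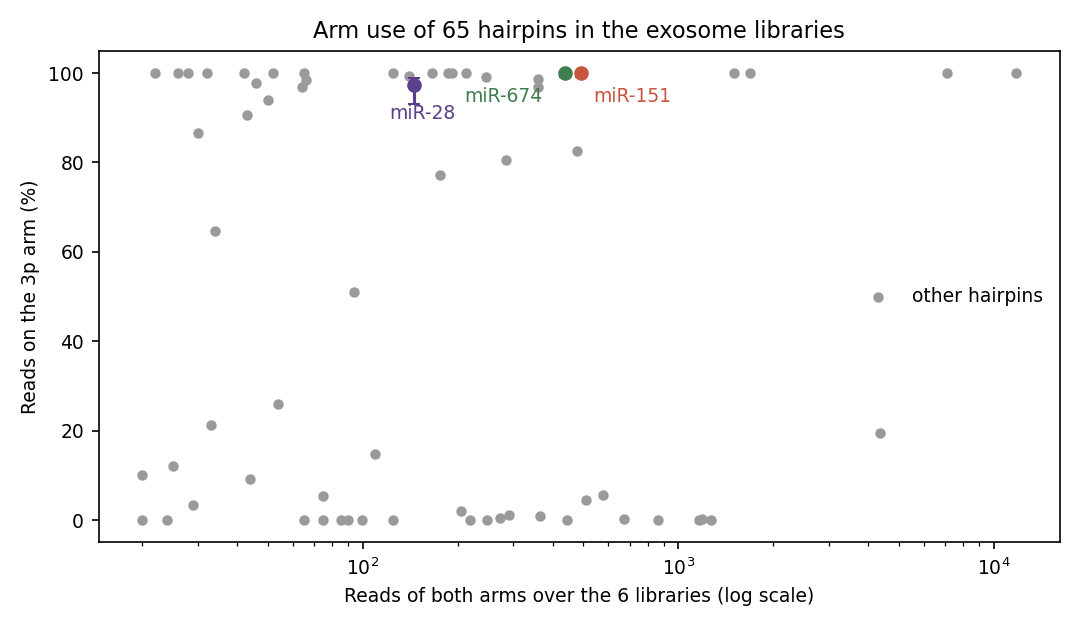
Share of reads on the 3p arm (vertical axis, %) against the reads of both arms over the 6 libraries (horizontal axis, log scale) for the 65 hairpins with at least 20 reads; bars on the 3 named hairpins are 95% Wilson intervals and grey points are the other hairpins. miR-151 and miR-674 sit at 100% and miR-28 at 97.2%, while most hairpins lie near either end of the axis.

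The strand kept is often the one that begins with U or A, and miR-28 was set beside that pattern. Both mature sequences were in the table for 55 of the 65 hairpins. The more abundant arm began with U in 25 of them (45.5%), with C in 14 (25.5%), with A in 11 and with G in 5. The less abundant arm began with A in 21 (38.2%), with C in 18, with U in 8 and with G in 8. For miR-28 the abundant 3p arm begins with C and the rare 5p arm with A, as in 6 of the 55 hairpins (10.9%). These are counts of letters and not a test of strand choice.

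miR-151-3p was among the more abundant miRNAs of the exosomes. It ranked 26th, 18th and 26th by reads in the untreated libraries and 19th, 16th and 18th in the nicorandil libraries. Its normalized reads were 30.6, 49.3 and 36.2 in untreated and 57.4, 81.4 and 59.1 in nicorandil exosomes. All 3 nicorandil values lay above all untreated values. The authors' scale for these values did not make the totals of miRNA reads equal between libraries. With library totals the log2 fold change was 0.32 (SE 0.23). On the authors' scale the means were 38.7 ± 9.60 and 65.9 ± 13.4 (SD, n = 3). The log2 fold change there was 0.76 (SE 0.22), from log2(value + 1). This is the difference for which the miRNA was chosen, so nothing is read from it.

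As a share of all miRNA reads, miR-151-3p overlapped between the groups. The shares were 0.674%, 1.08% and 0.727% in the untreated libraries and 0.938%, 1.23% and 0.914% in the nicorandil libraries. Untreated replicate 2 lay above nicorandil replicates 1 and 3. Over the pooled libraries the share was 0.827% in untreated (56 reads, 95% Wilson interval 0.637% to 1.07%) and 1.05% in nicorandil exosomes (434 reads, 0.955% to 1.15%), and the intervals overlapped. In the nicorandil group the SD between libraries was 0.177 percentage points, against 0.0916 from counting error, and replicate 2 was the high library.

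miR-674-3p was nearly as abundant as miR-151-3p and more even between libraries. It ranked 21st, 25th and 28th by reads in the untreated libraries and 18th, 18th and 19th in the nicorandil libraries. Its normalized reads were 36.7, 38.5 and 34.1 in untreated and 60.9, 57.2 and 58.6 in nicorandil exosomes, with means of 36.4 ± 2.23 and 58.9 ± 1.90 (SD, n = 3). The log2 fold change, for which it was chosen, was 0.68 (SE 0.19), and the groups did not overlap. As a share of reads it took 0.854%, 0.814% and 0.684% of the untreated and 0.974%, 0.888% and 0.902% of the nicorandil libraries. These shares did not overlap either, but the gap between the lowest nicorandil share, 0.888%, and the highest untreated share, 0.854%, was within the counting error of either library.

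The spread of miR-674-3p between replicates was below the SD that counting its reads gives on average. Its shares had an SD of 0.0888 percentage points in untreated and 0.0462 in nicorandil exosomes, against 0.186 and 0.0861 from counting error. With 3 libraries a group, whether it is below what chance gives was not tested. Pooled, it took 0.782% of untreated (53 reads, 95% Wilson interval 0.599% to 1.02%) and 0.926% of nicorandil reads (383 reads, 0.838% to 1.02%), and the intervals overlapped.

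miR-28-3p, the relative of miR-151 within the family, was less abundant and did not pass the test. It had 4, 7 and 9 reads in the untreated libraries and 37, 56 and 28 in the nicorandil libraries. In normalized reads these were 9.04, 14.9 and 17.6 in untreated and 12.4, 23.1 and 21.8 in nicorandil exosomes, with the lowest library of each group labelled replicate 1. The log2 fold change was 0.44 (SE 0.35, 95% interval -0.29 to 1.17, limma adjusted p = 0.497 over the 121 miRNAs tested). The interval includes both no change and the fold changes of miR-151-3p and miR-674-3p. Its share of reads averaged 0.294% ± 0.104 without and 0.299% ± 0.0667 with nicorandil (SD, n = 3; exact permutation test, two-sided, p = 0.9). The pooled shares, 0.295% from 20 reads and 0.292% from 121 reads, had 95% Wilson intervals of 0.191% to 0.456% and 0.245% to 0.349%.

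**Figure D2:**
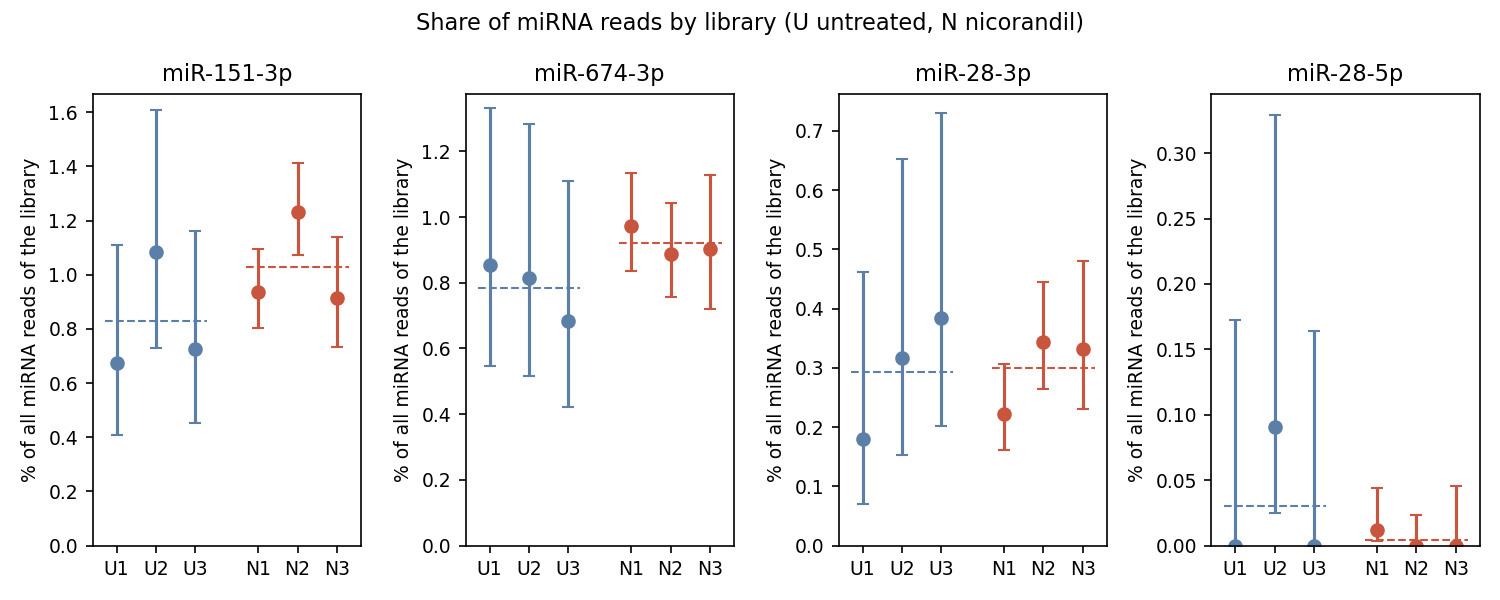
Share of all miRNA reads (vertical axis, %) of miR-151-3p, miR-674-3p, miR-28-3p and miR-28-5p in each untreated (U1 to U3) and nicorandil (N1 to N3) library; points are libraries, bars are 95% Wilson intervals and dashed lines are group means. The untreated intervals are the wider ones, and miR-151-3p in U2, at 1.08%, lies above N1 and N3.

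The other relative, miR-708, was scarce, and its 5p arm, which has the seed of miR-28-5p, had no read. miR-708-3p had 1 read in untreated replicate 3, and 7 and 1 reads in nicorandil replicates 1 and 3. Its log2 fold change was 0.40 (SE 0.76, 95% interval -1.21 to 2.02, limma adjusted p = 0.86), from 9 reads in all. Its direction was not settled: the value was -0.19 without nicorandil replicate 1, 0.89 without nicorandil replicate 2 and -0.82 in limma-voom. miR-708-5p had no read in either group, which allows up to 0.0443% of the untreated and 0.00725% of the nicorandil reads. The same limits hold for miR-151-5p and miR-674-5p. The annotation places a further gene, Mir151b (listed as miR-3586), in overlap with miR-151; this pair was looked up after the values were seen. miR-3586-3p had 1 read, in nicorandil replicate 1, and miR-3586-5p none. How reads that fit both genes were assigned is not stated in the labels, so the counts of miR-151 and miR-3586 are uncertain to that extent.

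A short list of other rodent miRNA names, which does not cover all rodent miRNAs, was set beside the 436 reads of miR-674-3p. The miR-297, miR-466, miR-467, miR-669, miR-672 and miR-673 names matched 12 rows of the table. Of these, miR-466b-5p had 4 reads and miR-672-5p 1, all in nicorandil libraries, and the other 10 had none. None of the 12 entered the fit.

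The 3p arms were compared with each other within each library, where the scaling between libraries plays no part. miR-151-3p had 0.789, 1.33 and 1.06 reads per read of miR-674-3p in the untreated libraries and 0.963, 1.39 and 1.01 in the nicorandil libraries. The group means were 1.06 ± 0.272 and 1.12 ± 0.231 (SD, n = 3), so the arms could not be ordered by level. Nicorandil replicate 2 was the only library whose 95% interval, 1.12 to 1.72, lay wholly above 1. miR-28-3p had 0.267, 0.292 and 0.529 reads per read of miR-151-3p in the untreated libraries and 0.237, 0.279 and 0.364 in the nicorandil libraries. It was the lower arm of this pair in all 6 libraries, and the groups overlapped. Against miR-674-3p it had 0.211, 0.389 and 0.563 in the untreated libraries and 0.228, 0.386 and 0.368 in the nicorandil libraries.

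**Figure D3:**
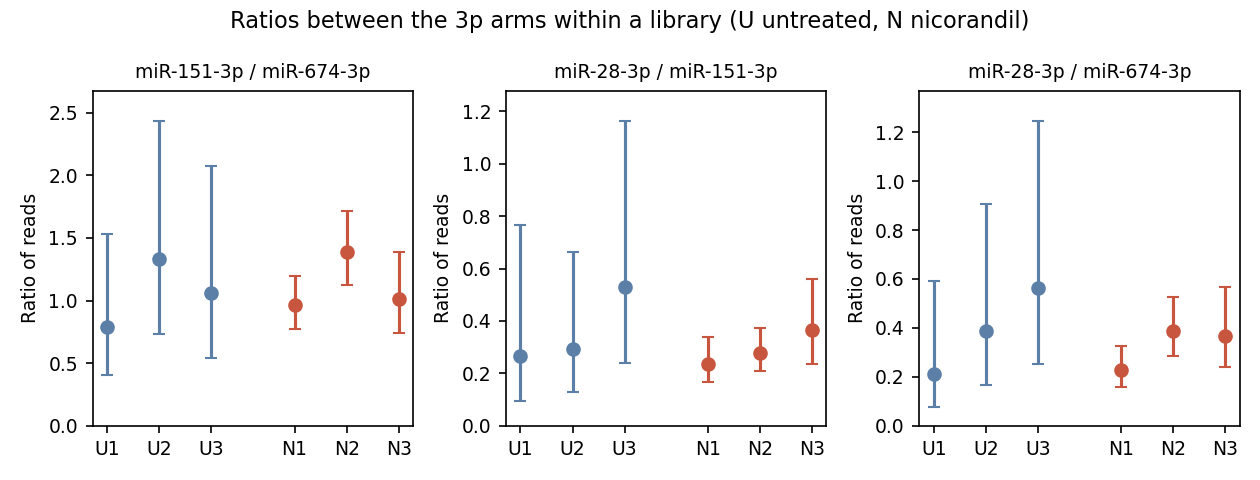
Ratio of reads (vertical axis) between the 3p arms of the 3 hairpins in each untreated (U1 to U3) and nicorandil (N1 to N3) library; bars are 95% Wilson intervals carried over to the ratio. All 3 ratios overlap between the groups, and miR-28-3p lies below 1 against both other arms in every library.

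In the fit 14.0% of the 121 miRNAs were called higher after nicorandil (17 miRNAs, limma adjusted p under 0.05), and 21.5% were called in either direction. Values of the groups did not overlap, with nicorandil above, for 17.4% of the 121 in normalized reads and for 9.09% in shares of reads. miR-151-3p and miR-674-3p are among the 17, which is how they were chosen, so nothing is read from their place there. Neither was called with library totals, median-of-ratios or upper-quartile scaling or in limma-voom. Of the 6 fits that leave out a library, miR-151-3p was called in 1, the fit without untreated replicate 2. miR-674-3p was called in 4, the exceptions being the fits without untreated replicate 1 and without nicorandil replicate 2. All these fits use the libraries in which both miRNAs were chosen for their rise. Their calls are therefore a description of the settings and not a test of either rise. The last miRNA inside the threshold was miR-27a-3p at 0.63 and the first outside it was miR-351-5p at 1.86, from means of 1.25 and 6.28 normalized reads.

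The scale set the size of both differences. The median log2 fold change of all 121 miRNAs was 0.23 on the deposited scale and -0.12 when library totals were used, a shift of the whole table. miR-151-3p lay 0.53 above that median on the deposited scale and 0.44 above it with library totals, where its log2 fold change was 0.32 (SE 0.23). miR-674-3p lay 0.45 and 0.35 above it, with 0.23 (SE 0.19) under library totals. miR-28-3p lay 0.21 and 0.18 above it. All 3 stayed above 0 under every scaling run. As miR-151-3p and miR-674-3p were chosen for their rise in these libraries, this is no support for their rise. For miR-28-3p the value with library totals was 0.06 (SE 0.36), so its direction was not settled. miR-151-3p ranged from 0.61 without nicorandil replicate 2 to 0.95 without untreated replicate 2, the libraries in which its share was highest, while miR-674-3p stayed between 0.63 and 0.72 whichever library was left out. miR-28-3p ranged from 0.18 without untreated replicate 1 to 0.71 without nicorandil replicate 1, and passed in none of these fits.

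**Figure D4:**
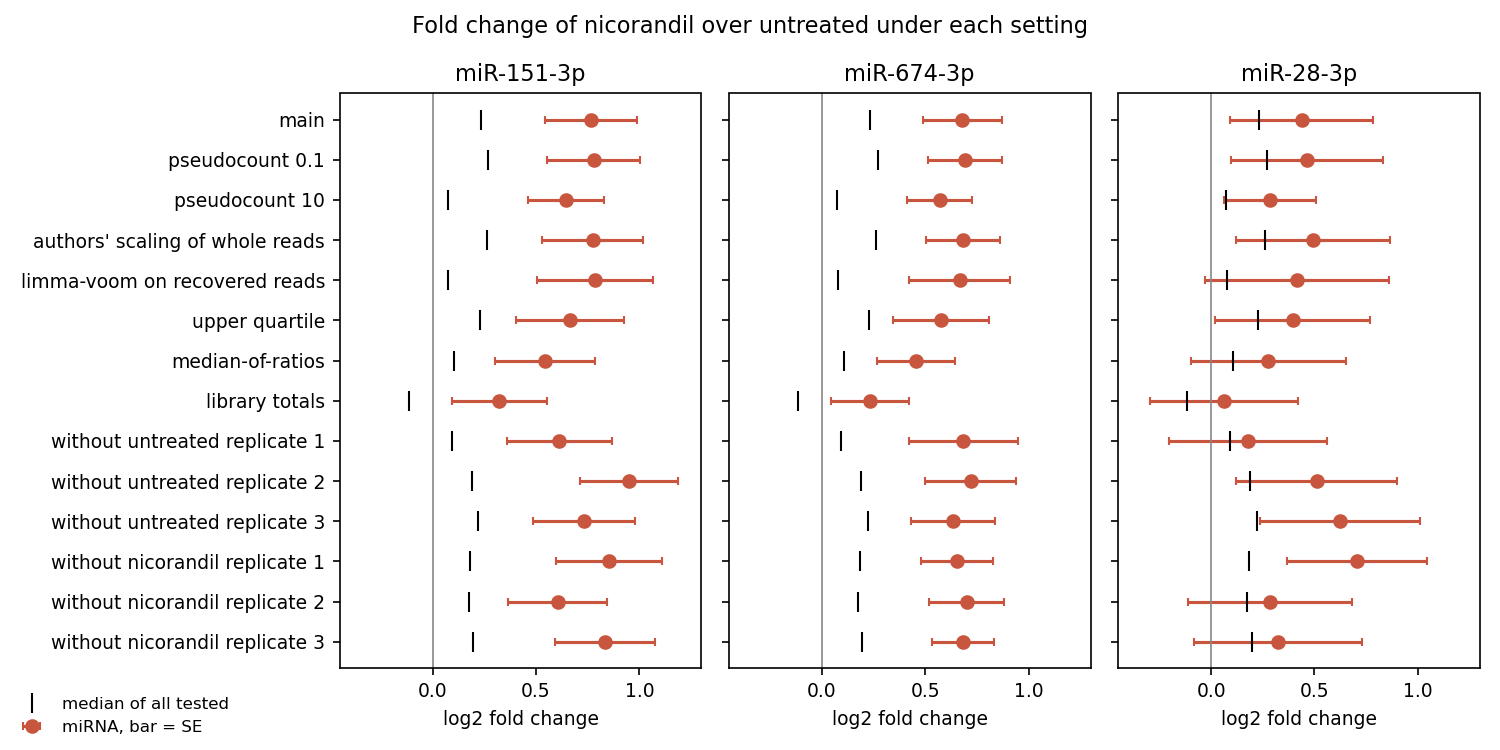
log2 fold change of nicorandil over untreated (horizontal axis) for miR-151-3p, miR-674-3p and miR-28-3p under each setting (vertical axis; main is the fit reported above); bars are SE and black ticks the median of all miRNAs tested. Library totals give the lowest values, 0.32, 0.23 and 0.06, and move the median to -0.12 as well.

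The miRNAs whose values over the 6 libraries were most like those of miR-151-3p were miR-27a-3p, miR-143-3p and miR-99a-5p. Likeness was measured as the root-mean-square difference of log2(value + 1) after each miRNA's own mean was subtracted, and was 0.14, 0.22 and 0.24 for these, against a median of 0.66 over all tested miRNAs. The same 3 were nearest to miR-674-3p, with miR-99a-5p at 0.12, miR-143-3p at 0.14 and miR-27a-3p at 0.17 (median 0.66). All 3 are themselves among the miRNAs called higher, and the libraries share depth and scale, so this is a description only. miR-674-3p was 5th in order of likeness to miR-151-3p, at 0.25, and miR-28-3p 12th, at 0.34. Seen from miR-674-3p, miR-151-3p was 10th and miR-28-3p 38th.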

How the data were processed

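Per the labels' protocols, small RNA libraries (NEBNext) of exosomal RNA were sequenced on an Illumina HiSeq, single-end. The submitters' processing notes name FastQC, Bowtie and edgeR, with no versions; the genome build and miRNA annotation are not stated there. The authors deposited 1 normalized signal value per miRNA and library, along with their log2 fold change and unadjusted p-value, per the file headers. The signal has the form of quantile-adjusted pseudo-counts (dispersion 0.0272). Inverting that form gave whole reads for 100% of the 763 miRNAs (relative tolerance 1e-05); shares, arms and intervals use these reads. limma 3.58.1 (R 4.3.3) with an intensity trend was applied to log2(value + 1), keeping the 121 miRNAs whose values averaged 1 or more, with Benjamini-Hochberg adjustment and a threshold of 0.05. Its moderated spread is shared across miRNAs. Single values were compared by exact permutation (scipy 1.17.1). Scripts were tested on simulated data. Alternatives were other pseudocounts, filters and scalings, limma-voom, a replicate block and each library left out.

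The miRNAs and lists were chosen with earlier results of these data known. Named besides the 6 arms were miR-708, miRNAs that share a seed, the 2 most abundant of a rodent list, the 3 nearest patterns, neighbours in 3p share and those at the threshold.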

Additional observations from a re-analysis of the deposited data

How the results depend on the processing

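Against 26 miRNAs called (17 higher, 9 lower), there were 15 with library totals (4 and 11), 15 with median-of-ratios (6 and 9), 16 with upper-quartile scaling (7 and 9), and 11 to 21 with a library left out, fewest without nicorandil replicate 2 (6 and 5). limma-voom gave 9 and 10. The log2 fold change of miR-151-3p was 0.32 with library totals, and that of miR-674-3p 0.23 there, 0.45 with median-of-ratios, 0.58 with upper-quartile scaling and 0.57 with a pseudocount of 10; the values of the other settings lay within the spread between replicates. miR-28-3p was not called in any setting. Its share of reads, higher by 0.00554 percentage points after nicorandil, ranged from -0.0514 to 0.0511 with a library left out and was -0.0173 with untreated replicates 1 and 2 averaged, so its direction was not determined. The 3p share of miR-28, higher by 5.70 percentage points, ranged from -1.71 to 9.40 with a library left out, lowest without untreated replicate 2, which holds 2 of the 4 reads of the 5p arm. The replicate number as a block gave 17 and 9 calls and 0.76, 0.68 and 0.44 for miR-151-3p, miR-674-3p and miR-28-3p. The SE with the block was 0.16, 0.16 and 0.25, against 0.22, 0.19 and 0.35 without it. Deviations of same-numbered libraries had correlations of 0.00883, 0.0437 and -0.03 over the 121 miRNAs, so no pairing by number was seen over the miRNAs as a whole. Many of these miRNAs have few untreated reads, so the correlations cannot exclude a pairing. The averaging of replicates, limma-voom and whole reads on the authors' scale were chosen after the data were seen. The planned tests with edgeR and DESeq2 were not run; limma-voom was used on the recovered reads in their place. The 20 untreated reads of miR-28-3p limit what can be said of it.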
